A study of Drosophila melanogaster with 27 samples.

Results

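Maternal cell cycle and egg activation genes are described here as a set of 9: gnu, plu, CycA, CycB, CycB3, CycE, stg, polo and dhd. A gene was measured where a probe set of the array was annotated to it alone, whatever its values, and 6 of the 9 had such a probe set: gnu, plu, CycB, CycB3, CycE and dhd, with 1 probe set each. They lie apart from each other, dhd on X, CycE on 2L, plu and CycB on 2R, gnu on 3L and CycB3 on 3R. CycA, stg and polo had none and were not analysed here. All 6 measured genes had a mean log2 level above 6 in wild type, the limit used for calling a gene expressed, as did 7378 of the 11894 genes with a probe set.

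A fly egg is laid with messenger RNA made in the ovary and runs its first divisions on that store before its own genome is transcribed. Egg activation completes female meiosis and switches on translation of stored mRNAs, and the products of gnu and plu act in it with the kinase png to raise mitotic cyclin levels. The B type cyclins drive entry into and exit from mitosis and meiosis, Cyclin E drives DNA replication, and deadhead (dhd) is an ovarian thioredoxin needed after fertilisation to remold the sperm chromatin. Whole adult females carry these transcripts mainly in the germline of the ovary.

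Total RNA of whole adult females up to a day old was measured on 27 arrays, with 10 flies pooled per replicate and 3 biological replicates in each of 9 groups. Females labelled Df(2L)J-H/+, females labelled Df(2L)ED4651/+ and females labelled Df(3L)4470/+ lacked 1 copy of an autosomal segment each, and all came from a balanced deficiency stock crossed to Oregon R. Females labelled haplo 4th had a single chromosome 4 and came from a cross of wild type to the compound stock C(4)RM sv spa-pol/0. Df(2L)J-H/+ haplo 4th females had both changes, came from the same compound stock crossed to the deficiency and were picked by their Minute phenotype. Dp(2;2)Cam3/+ triplo 4th females had 3 copies of a segment of 2L and 3 copies of chromosome 4, from that compound stock too, and were picked as non-Minute. The arrays labelled pof-mutant held offspring of a stock homozygous for the allele PofD119 in y1 w67c23. Those labelled pof-mutant triplo 4th came from crossing this stock to flies with the compound chromosome 4 that carried the Pof allele over the balancer CyO. Pof encodes a protein that coats chromosome 4. Wild type was the stock y1 w67c23, so the deficiency females had a different parental strain from wild type, and strain and deficiency cannot be told apart. The groups with 1 or 3 copies of chromosome 4 had a parent with the compound chromosome. Parental stock and copy number cannot be told apart there.

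The labels were checked against the arrays. In each group with an altered autosomal segment a run of neighbouring genes moved in the labelled direction, with mean log2 ratios to wild type of -0.65 over 31 genes of 2L in Df(2L)J-H/+, -0.80 over 52 genes of 2L in Df(2L)ED4651/+ females, -0.65 over 52 genes of 3L in Df(3L)4470/+, -0.92 over 21 genes of 2L in Df(2L)J-H/+ haplo 4th females and 0.57 over 202 genes of 2L in Dp(2;2)Cam3/+ triplo 4th. The series text places the deficiency labelled Df(3L)4470 on 2L instead. None of the 6 measured genes lay in any of these runs, and none lies on chromosome 4. The unmeasured CycA lies near the end of the 3L run in RefSeq gene order, with 49 genes of the run before it and 3 after it. Of its 3 expressed neighbours on each side, CG5946, Muc68E and CG42397 fell in Df(3L)4470/+ females (log2 ratios -0.97, -1.48 and -1.80), prc rose (1.80), and RpL10Ab and CG32095 did not pass (0.08 and -0.91). Set against the mean of the other 2 deficiency genotypes, which share the Oregon R parent, only CG5946 passed (-0.88, adjusted p = 0.0238), with -0.74 for Muc68E, -0.89 for CG42397 and 0.48 for prc. Pof itself was not lower on the arrays labelled pof-mutant: its log2 level was 9.11, 11.04 and 8.94 there and 7.69, 7.44 and 7.91 in wild type, and the part of the gene that its probe set reads, relative to the allele, was not given in the sources used here. Those arrays are therefore called by their labels throughout.

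Arrays of a group agreed to very different degrees. Over the 7378 expressed genes the correlation between replicates was 0.955 to 0.98 in wild type and 0.966 to 0.993 in the 3 deficiency groups, but 0.84 to 0.95 in Dp(2;2)Cam3/+ triplo 4th, 0.675 to 0.92 in pof-mutant triplo 4th and 0.624 to 0.9 in pof-mutant. Replicate 2 of pof-mutant stood apart in its levels of tissue markers, and the values of the 6 genes that involve the pof-mutant mean are given with and without it. Levels below are log2 values as deposited plus 1 constant per array that brings the mean over expressed genes to that of wild type. The constant was 0.16 to 0.39 on the 9 deficiency arrays and -0.05 to 0.21 on all others, so differences are relative to the average expressed gene.

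All 6 genes had their lowest group means in Df(2L)ED4651/+ females and the next lowest in Df(2L)J-H/+ females. At a 5% false discovery rate in limma, 3 of the 6 fell in Df(2L)J-H/+ (dhd, CycB3 and gnu), where 6.83% of the 7378 expressed genes fell. In Df(2L)ED4651/+ 4 fell (the same 3 and CycB), beside 8.86% of expressed genes, and in Df(3L)4470/+ 1 fell (dhd), beside 5.29%. In Df(3L)4470/+ 15% of expressed genes passed in either direction, so the count of 1 there was near the share of all genes. On every array of these 3 genotypes and of haplo 4th females all 6 were lower than on any wild type array, as were 31.6% of expressed genes in Df(2L)J-H/+ females, 33.5% in Df(2L)ED4651/+ females, 28.9% in Df(3L)4470/+ and 25.7% in haplo 4th. None rose in any genotype. In whole-fly RNA, fewer cells of a type and less RNA per cell cannot be told apart.

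**Figure D1:**
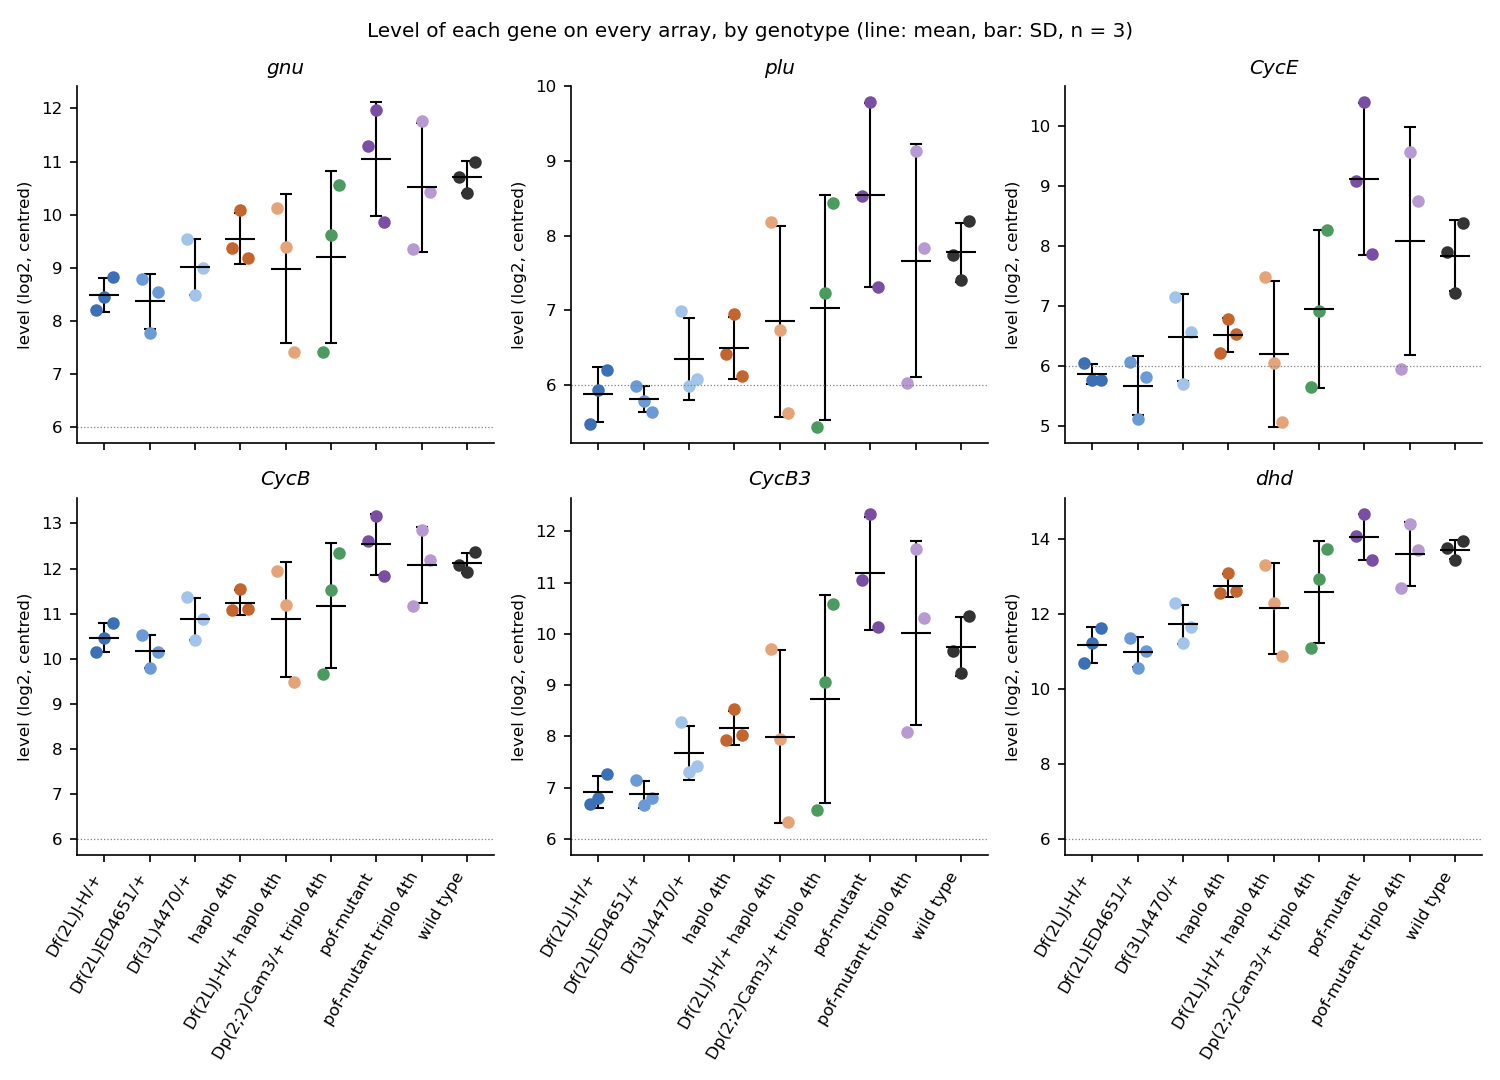
Log2 level of each of the 6 genes on every array, after centring, by genotype; points are arrays, the long line is the group mean and the bar its SD (n = 3), and the dotted line marks the limit of 6 for expressed genes. The points of the 3 deficiency genotypes and of haplo 4th lie below all wild type points in every panel, while pof-mutant has a wide spread and the highest mean in every panel, for gnu only with its replicate 2.

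dhd, the ovarian thioredoxin, was the gene that passed in all 3 deficiency genotypes. Its log2 level was 10.68, 11.21 and 11.63 in Df(2L)J-H/+ females, 11.36, 10.57 and 11.003 in Df(2L)ED4651/+ females, 12.28, 11.22 and 11.65 in Df(3L)4470/+ and 13.75, 13.44 and 13.94 in wild type. No deficiency array came within 1 log2 unit of the lowest wild type array. The fall was 5.79-fold in Df(2L)J-H/+ (log2 ratio -2.53 ± 0.59 SE, adjusted p = 0.00659), 6.64-fold in Df(2L)ED4651/+ (-2.73 ± 0.59 SE, adjusted p = 0.00329) and 3.98-fold in Df(3L)4470/+ (-1.99 ± 0.59 SE, adjusted p = 0.026). Leaving out 1 array at a time, the adjusted p of dhd in Df(3L)4470/+ ran from 0.0103 to 0.13 in limma. In the other genotypes the level was 12.56, 13.10 and 12.61 in haplo 4th, 13.30, 12.28 and 10.88 in Df(2L)J-H/+ haplo 4th females, 11.09, 12.95 and 13.72 in Dp(2;2)Cam3/+ triplo 4th, 14.08, 14.65 and 13.43 in pof-mutant and 12.69, 14.41 and 13.69 in pof-mutant triplo 4th. All haplo 4th arrays lay below wild type, and the other 4 of these groups overlapped it or, in Df(2L)J-H/+ haplo 4th females, lay below it with a spread of more than 2 log2 units. The neighbouring gene TrxT, a testis thioredoxin that was singled out after its values were seen, had levels of 3.49 to 4.36 on all 27 arrays, below the limit for expressed genes.

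CycB3, a B type cyclin needed for anaphase of female meiosis, had the widest range of group means, 19.9-fold from Df(2L)ED4651/+ up to pof-mutant (13.3-fold without replicate 2 of pof-mutant). Its log2 level was 6.68, 6.79 and 7.27 in Df(2L)J-H/+, 7.16, 6.65 and 6.79 in Df(2L)ED4651/+ females, 8.28, 7.31 and 7.42 in Df(3L)4470/+ and 9.67, 9.23 and 10.36 in wild type. The Df(2L)J-H/+ arrays also lay below all Df(3L)4470/+ arrays, a difference that did not pass (unadjusted p = 0.408 in limma). The share of all expressed genes with such a gap was not computed. CycB3 fell 7.14-fold in Df(2L)J-H/+ (log2 ratio -2.84 ± 0.90 SE, adjusted p = 0.0346) and 7.38-fold in Df(2L)ED4651/+ (-2.88 ± 0.90 SE, adjusted p = 0.0283), and did not pass in Df(3L)4470/+ (-2.08 ± 0.90 SE, adjusted p = 0.12). The level was 7.93, 8.53 and 8.03 in haplo 4th, 9.71, 7.95 and 6.33 in Df(2L)J-H/+ haplo 4th females, 6.56, 9.06 and 10.58 in Dp(2;2)Cam3/+ triplo 4th, 11.06, 12.34 and 10.14 in pof-mutant and 8.09, 11.65 and 10.31 in pof-mutant triplo 4th. The 3 haplo 4th arrays were close together below wild type, and the other 4 of these groups overlapped wild type.

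CycB, the main mitotic B cyclin and a translational target of egg activation, had log2 levels of 10.16, 10.46 and 10.79 in Df(2L)J-H/+, 10.53, 9.80 and 10.15 in Df(2L)ED4651/+ females, 11.36, 10.41 and 10.87 in Df(3L)4470/+ and 12.08, 11.92 and 12.36 in wild type. The 9 deficiency arrays were all below the 3 wild type arrays. CycB fell 3.90-fold in Df(2L)ED4651/+ (log2 ratio -1.96 ± 0.59 SE, adjusted p = 0.024), and the ratio of -1.65 ± 0.59 SE in Df(2L)J-H/+ just missed the limit (adjusted p = 0.0564), as did -1.24 ± 0.59 SE in Df(3L)4470/+ by a wider margin (adjusted p = 0.156). Its level was 11.07, 11.55 and 11.10 in haplo 4th, 11.95, 11.20 and 9.47 in Df(2L)J-H/+ haplo 4th females, 9.65, 11.53 and 12.35 in Dp(2;2)Cam3/+ triplo 4th, 12.60, 13.17 and 11.82 in pof-mutant and 11.18, 12.85 and 12.19 in pof-mutant triplo 4th. The haplo 4th arrays lay below wild type and the other 4 of these groups overlapped it. CycB had the narrowest range of group means of the 6 genes, 5.19-fold (4.16-fold without replicate 2 of pof-mutant, again the narrowest).

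gnu and plu encode the partners that activate the png kinase. The log2 level of gnu was 8.20, 8.45 and 8.83 in Df(2L)J-H/+, 8.78, 7.78 and 8.54 in Df(2L)ED4651/+ females, 9.54, 8.49 and 8.999 in Df(3L)4470/+ and 10.71, 10.40 and 10.999 in wild type. gnu fell 4.63-fold in Df(2L)J-H/+ (log2 ratio -2.21 ± 0.73 SE, adjusted p = 0.0423) and 5.06-fold in Df(2L)ED4651/+ (-2.34 ± 0.73 SE, adjusted p = 0.0288), with -1.70 ± 0.73 SE in Df(3L)4470/+ (adjusted p = 0.12). The call of gnu in Df(2L)J-H/+ was lost without any single array of Df(2L)J-H/+ or of wild type (adjusted p = 0.0704 to 0.135) and also without some single arrays of other groups (up to 0.0515). In the remaining groups gnu was at 9.37, 10.10 and 9.18 in haplo 4th, 10.13, 9.40 and 7.42 in Df(2L)J-H/+ haplo 4th females, 7.41, 9.62 and 10.56 in Dp(2;2)Cam3/+ triplo 4th, 11.30, 11.97 and 9.87 in pof-mutant and 9.35, 11.76 and 10.43 in pof-mutant triplo 4th. Both haplo 4th groups lay below wild type on every array, and the other 3 groups overlapped it.

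plu had log2 levels of 5.48, 5.93 and 6.20 in Df(2L)J-H/+, 5.99, 5.78 and 5.64 in Df(2L)ED4651/+ females, 6.98, 5.98 and 6.08 in Df(3L)4470/+ and 7.74, 7.40 and 8.19 in wild type. The deficiency arrays were thus near the limit for expressed genes, and the ratios were -1.90 ± 0.76 SE, -1.97 ± 0.76 SE and -1.43 ± 0.76 SE with adjusted p of 0.0817, 0.0654 and 0.202. Over the remaining groups plu ran from 5.43 on replicate 1 of Dp(2;2)Cam3/+ triplo 4th to 9.78 on replicate 2 of pof-mutant. The gene of the kinase itself, png, was looked at after its values were seen: its group means ran from 6.02 in Df(2L)J-H/+ to 8.46 in pof-mutant (7.90 without its replicate 2), with 7.15 ± 0.24 (SD, n = 3) in wild type. Its ratios to wild type did not pass, with -1.14 in Df(2L)J-H/+ (adjusted p = 0.117), -1.01 in Df(2L)ED4651/+ females (adjusted p = 0.146) and -0.92 in Df(3L)4470/+ (adjusted p = 0.219).

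CycE, the partner of Cdk2 at the start of DNA replication, was read by a probe set whose suffix marks probes shared between transcripts. Its log2 level was 6.06, 5.77 and 5.78 in Df(2L)J-H/+, 6.07, 5.12 and 5.82 in Df(2L)ED4651/+ females, 7.15, 5.71 and 6.57 in Df(3L)4470/+ and 7.90, 7.22 and 8.39 in wild type. The ratios of -1.97 ± 0.80 SE, -2.17 ± 0.80 SE and -1.36 ± 0.80 SE did not pass (adjusted p = 0.0866, 0.0554 and 0.244), although all 9 arrays lay below the wild type arrays. On the other arrays CycE ran from 5.07 on replicate 3 of Df(2L)J-H/+ haplo 4th to 10.40 on replicate 2 of pof-mutant, and the means of Df(2L)J-H/+ and Df(2L)ED4651/+, 5.87 and 5.67, were below the limit of 6.

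**Figure D2:**
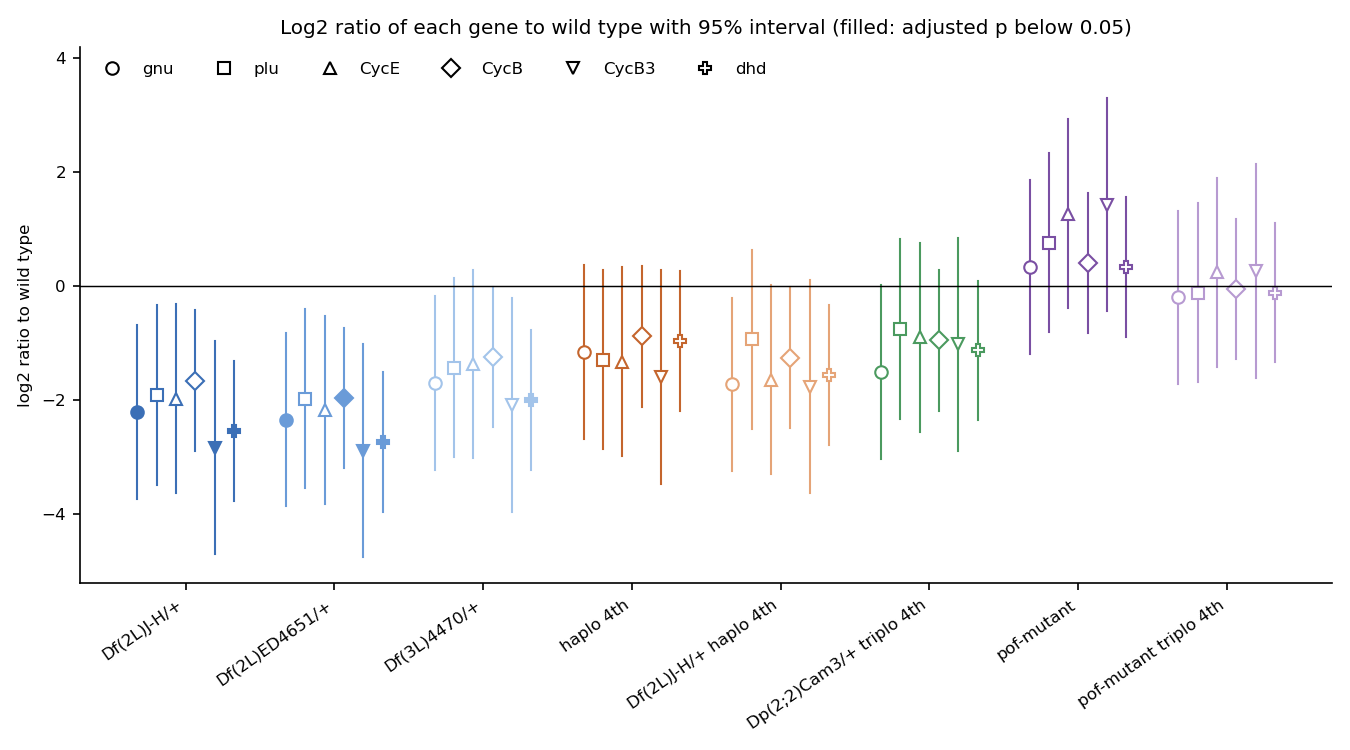
Log2 ratio of each of the 6 genes to wild type in the 8 other genotypes, with its 95% interval from limma; filled symbols passed an adjusted p of 0.05. Filled symbols stand in the 3 deficiency genotypes, all below 0, and the intervals of the 5 other genotypes are as wide and mostly cross 0.

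Counted in either direction, 17.8% of expressed genes passed in Df(2L)J-H/+, 21.8% in Df(2L)ED4651/+ females and 15% in Df(3L)4470/+. The median log2 ratio of the 6 genes was -2.09 in Df(2L)J-H/+, -2.25 in Df(2L)ED4651/+ females and -1.56 in Df(3L)4470/+, beside -0.01, 0.01 and -0.02 over all expressed genes. The comparisons share the 3 wild type arrays, so they are not independent of each other.

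The test pools the spread of all 9 groups, and for these genes the groups differed in spread. The SD over 3 replicates was 0.17 to 0.73 in the deficiency, haplo 4th and wild type groups and 0.61 to 2.03 in the other 4 groups. The pooled SD within groups was 0.76 for dhd up to 1.17 for CycB3, against a median of 0.32 over all expressed genes, and 5.07% of them had one as large as the smallest of the 6. With the arrays of only the 2 groups compared in the fit, all 6 passed in each deficiency genotype and in haplo 4th, beside 51.1% of all expressed genes in Df(2L)J-H/+, 58.7% in Df(2L)ED4651/+ females, 43.8% in Df(3L)4470/+ and 29.4% in haplo 4th. The count in Df(2L)J-H/+ was 1 without any single replicate of Df(2L)J-H/+ or of wild type, when 7% to 11.3% of all expressed genes passed, and 6 without replicate 1 of pof-mutant triplo 4th, when 22.3% did. In Df(2L)ED4651/+ it was 1 without its replicate 2 or 3 or without replicate 1 or 3 of wild type (9.72% to 12.4% of all expressed genes), and in Df(3L)4470/+ it was 0 without its replicate 2 or 3 or without replicate 1 or 3 of wild type (6.29% to 10.2%). Whichever array was left out, dhd passed in both 2L deficiency genotypes, with adjusted p up to 0.0344 in Df(2L)J-H/+ and up to 0.0213 in Df(2L)ED4651/+.

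Df(3L)4470/+ females had somewhat higher levels than the other 2 deficiency genotypes, without a difference that passed. The 6 ratios to the mean of Df(2L)J-H/+ and Df(2L)ED4651/+ were 0.51 to 0.78, with a median of 0.61, none passed (limma, 0 of 6, and 0 at an unadjusted p of 0.05), and 0.407% of all expressed genes did in either direction.

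Haplo 4th females had lower levels than wild type, which did not pass the pooled test. A parent of these females was of the compound stock, so parental stock and loss of chromosome 4 cannot be told apart. In haplo 4th females the log2 ratios to wild type were -1.16 for gnu, -1.29 for plu, -0.88 for CycB, -1.59 for CycB3, -1.32 for CycE and -0.95 for dhd (SE 0.59 to 0.90, adjusted p = 0.378 to 0.458, 0 of 6 at an unadjusted p of 0.05). In this comparison 3.85% of all expressed genes passed.

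In Df(2L)J-H/+ haplo 4th females the 3 replicates were far apart. The mean of the 6 genes was 10.13, 8.94 and 7.47 on its 3 arrays, and 10.31, 9.93 and 10.71 on those of wild type. The ratios to wild type were -0.93 for plu to -1.76 for CycB3, with a median of -1.60, and 0 of 6 passed (adjusted p = 0.0996 to 0.463, 9.91% of all expressed genes called). In limma 3 of the 6 had an unadjusted p below 0.05, as did 1846 of the 7378 expressed genes. Only gnu and dhd lay below wild type on every array, 2 of the 6, as did 22% of all expressed genes. Without replicate 1 dhd passed (-2.13, adjusted p = 0.0344), and without replicate 3 the 6 ratios were -0.31 to -1.07. Against haplo 4th alone the ratios ran from -0.60 to 0.36 and against Df(2L)J-H/+ alone from 0.33 to 1.08, with 0 of 6 passed in each and 0 at an unadjusted p of 0.05. There 0.542% and 4.46% of all expressed genes passed.

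Whether loss of chromosome 4 acted differently with and without Df(2L)J-H was tested as an interaction. The interaction was 1.28 to 2.67 log2 units over the 6 genes, which means that the difference that went with losing chromosome 4 was less negative, or positive, beside Df(2L)J-H/+. It did not pass for any of them (adjusted p = 0.321 to 0.513), with dhd, plu and CycB3 at unadjusted p of 0.0305, 0.0465 and 0.0481 in limma. By p these 3 ranked only 698, 920 and 939 among the 7378 expressed genes. The share of all expressed genes that passed the interaction was not counted. The 4 groups in the interaction came from different stocks and crosses, so parental strain is part of this contrast and cannot be told apart from it.

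In Dp(2;2)Cam3/+ triplo 4th females the ratios to wild type were -0.74 for plu to -1.51 for gnu, and 0 of 6 passed (adjusted p = 0.324 to 0.708, 0 at an unadjusted p of 0.05, 3.31% of all expressed genes called). Most of this came from 1 array. The mean of the 6 genes was 7.63 on replicate 1, 9.55 on replicate 2 and 10.65 on replicate 3, and without replicate 1 the ratios were between -0.61 for gnu and 0.07 for CycB3.

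The arrays labelled pof-mutant had the highest group mean of every one of the 6 genes, with ratios to wild type of 0.34 for gnu to 1.43 for CycB3, none of which passed (adjusted p = 0.224 to 0.728, 0 at an unadjusted p of 0.05, 3.78% of all expressed genes called). Replicate 2 had the highest level of all 27 arrays for each of the 6, and without it the ratios were -0.12 for gnu, 0.15 for plu, 0.09 for CycB, 0.85 for CycB3, 0.64 for CycE and 0.04 for dhd. In pof-mutant triplo 4th the ratios were between -0.19 and 0.27, again with 0 of 6 passed and 0 at an unadjusted p of 0.05 (1.41% of all expressed genes called), and without replicate 1 they were 0.34 to 1.32. Set against pof-mutant, pof-mutant triplo 4th had ratios of -1.16 to -0.45, and neither these genes nor any of the 7378 passed (0%, with 422 at an unadjusted p of 0.05). Without replicate 2 of pof-mutant these ratios were -0.58 to -0.07 and again 0 of 6 passed. The change with an added chromosome 4 on the pof-mutant background, less that in Dp(2;2)Cam3/+ triplo 4th, did not pass for any of the 6 (adjusted p = 0.945 to 0.995, and 0.76 to 0.961 without that array), and these groups too came from different stocks and crosses. The share of all expressed genes that passed was not counted for this contrast.

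The order of the 9 group means was not resolved step by step. Df(2L)ED4651/+ had the lowest and pof-mutant the highest mean for all 6. The upper end rested in part on replicate 2 of pof-mutant: without it gnu was at 10.58 in pof-mutant and highest in wild type, at 10.70, and for dhd pof-mutant was at 13.75 and wild type at 13.71. Of the 48 steps between neighbours in these orders, 0 passed in limma and 0 had an unadjusted p of 0.05 or less (lowest 0.166), with or without that array. In 1 of them, between CycB3 in Df(2L)J-H/+ females and in Df(3L)4470/+ females, the arrays did not overlap. How many of all expressed genes had no overlap between these groups was not computed.

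Across single arrays the 6 genes moved together. Between arrays of the same genotype, the deviations from the group mean correlated at 0.882 to 0.993 over the 15 pairs of genes, and over all 27 arrays the levels correlated at 0.911 to 0.989. These are descriptions across arrays that share flies, RNA and normalization for all genes. The swing was unequal in size: per unit of change in the mean of the other 5 genes, CycB3 moved 1.42 units and CycB 0.74. Without replicate 2 of pof-mutant the correlations were 0.88 to 0.992 between arrays of a genotype and 0.907 to 0.988 over 26 arrays, and the slopes 1.41 and 0.76.

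The mean of the female germline markers moved with them. The mean log2 level of 13 germline genes, among them osk and bcd, was 7.54 to 8.72 on the 9 deficiency arrays and 9.02 to 9.32 in wild type. Of the 12 that were expressed, 4 fell and 1 rose in Df(2L)J-H/+ (median log2 ratio -0.91). In Df(2L)ED4651/+ 7 fell and 1 rose (-1.53), and in Df(3L)4470/+ 1 fell and 1 rose (-0.91). Of all expressed genes 6.83%, 8.86% and 5.29% fell in these 3 genotypes, and 17.8%, 21.8% and 15% passed in either direction. The count in Df(3L)4470/+ was thus near the share of all genes. In each of the 3 genotypes 9 of the 12 had ratios below 0, with highest ratios of 1.1, 0.77 and 0.82. In pof-mutant 6 of the 12 had ratios below 0 (median 0.098), and 0 passed. Within genotypes the list followed the mean of the 6 genes with r = 0.986 over 27 arrays, as a description. Its part in the results above was not tested.

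Between arrays of the same genotype, markers of other tissues followed the 6 genes less closely or moved the opposite way. The 15 follicle cell and eggshell genes averaged 5.50 to 6.73 on deficiency arrays and 6.75 to 10.44 in wild type. Of these 13 were expressed, and all 13 had ratios below 0 in each deficiency genotype. In Df(2L)J-H/+ females 2 of them fell (median log2 ratio -2.10). In Df(2L)ED4651/+ females 1 fell (-2.13), and in Df(3L)4470/+ 0 fell (-1.83). The medians were thus near those of the 6 genes and below those of the germline list. The 4 genes of yolk proteins and their receptor averaged 10.63 to 12.30 on deficiency arrays and 12.65 to 12.74 in wild type. All 4 had ratios below 0 in these genotypes too, with medians of -1.43, -0.30 and -0.61 in the same order. The 7 muscle genes averaged 13.48 to 13.71 on deficiency arrays and 12.75 to 13.09 in wild type, with 0 of 7 passed in each deficiency genotype. The correlation with the mean of the 6 genes within genotypes was 0.623 for the eggshell list, 0.612 for yolk, 0.252 for gut, -0.641 for muscle and -0.805 for eye and head. Of 17 testis and male accessory gland genes 0 had a group mean above 6 anywhere. The part of these tissues in the results was not tested.

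**Figure D3:**
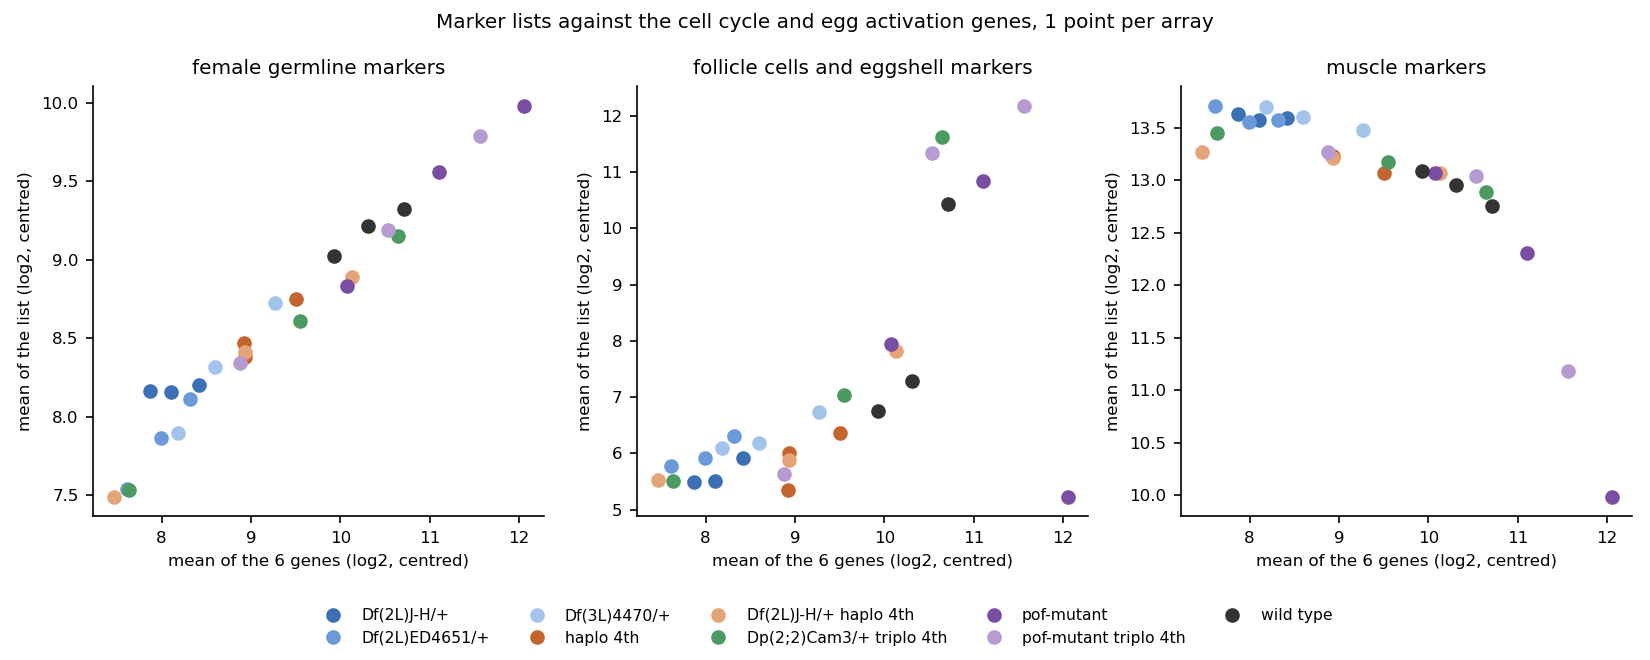
Mean log2 level of the female germline, eggshell and muscle lists on each of the 27 arrays, against the mean of the 6 genes on the same array; colours are genotypes. The germline list rises along with the 6 genes over the whole range, whereas replicate 2 of pof-mutant, at the far right, is the lowest array of both other lists.

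Replicate 2 of pof-mutant broke the pattern of the eggshell list. Its mean of the 6 genes was 12.05, the highest of 27 arrays, and its germline list was at 9.98, also the highest. Its eggshell list was at 5.23 and its muscle list at 9.98, each the lowest, where the other pof-mutant replicates had 10.84 and 7.94 for eggshell and 12.31 and 13.07 for muscle. Replicate 2 of pof-mutant triplo 4th, with 11.56 for the 6 genes, had the highest eggshell mean, 12.18, and the second lowest muscle mean, 11.18.

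Other genes of cell division and egg activation were followed in a list of 49, of which 39 had a probe set and 37 were expressed. In Df(2L)J-H/+ 6 fell and 1 rose (median log2 ratio -0.97). Of all expressed genes 6.83% fell there and 17.8% passed in either direction, and only the latter share was near that of the list. In Df(2L)ED4651/+ females 11 fell and 0 rose (-1.14), where 8.86% of all fell and 21.8% passed. The strongest falls were the same genes in both: Cks30A, a Cdk-binding subunit used in the female germline (-2.38 and -2.76), wisp, the poly(A) polymerase of egg activation (-2.32 and -2.39), and smg, a repressor that clears maternal mRNAs (-2.09 and -2.31). Cks85A, the other gene of the Cks family, rose in Df(2L)J-H/+ (0.76 ± 0.18 SE, adjusted p = 0.00759). None of the 37 passed in Df(3L)4470/+ (median -0.86), haplo 4th (-0.58), Df(2L)J-H/+ haplo 4th (-0.69), pof-mutant (0.80, and 0.38 without its replicate 2) or pof-mutant triplo 4th (0.21). Of all expressed genes 15%, 3.85%, 9.91%, 3.78% and 1.41% passed in these genotypes, in the same order. In Dp(2;2)Cam3/+ triplo 4th (median -0.40) 1 fell, Trx2, the widely expressed thioredoxin (-0.86 ± 0.13 SE, adjusted p = 0.000666). There 3.31% of all expressed genes passed in either direction, near the share of the list. Trx2 lies on 2L outside the run of raised genes.

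**Figure D4:**
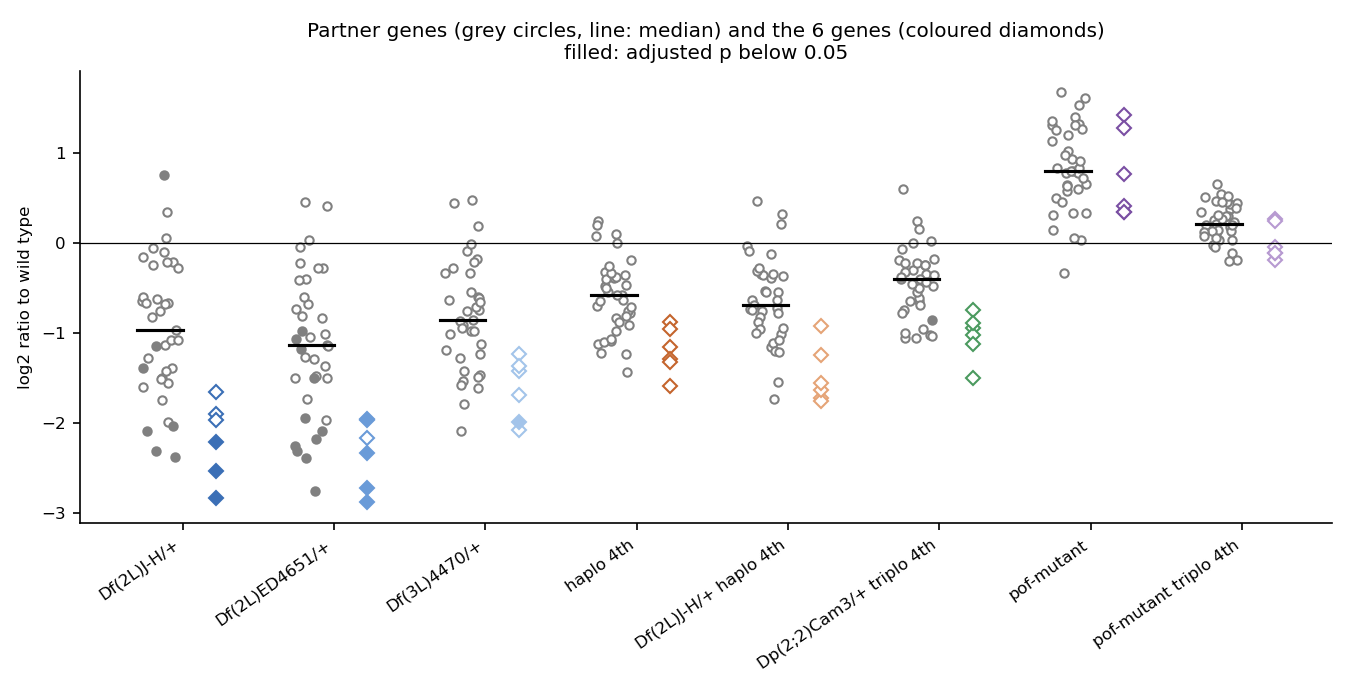
Log2 ratio to wild type of the 37 expressed partner genes (grey circles, line at the median) and of the 6 genes (coloured diamonds) in the 8 other genotypes; filled symbols passed an adjusted p of 0.05. In the deficiency genotypes all diamonds lie below the partners' median, with CycB3 below the lowest partner in Df(2L)J-H/+ and in Df(2L)ED4651/+ females and dhd below it in Df(2L)J-H/+, and in both pof-mutant genotypes the 2 sets overlap around or above 0.

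The genes whose level over the 27 arrays was most like the mean profile of the 6 were smg (r = 0.996), wisp (0.994), Cyp6a19, BigH1 and bcd (0.992 each). smg and wisp also stand in the partner list and bcd in the germline list. For single genes the closest were Pxt for gnu and for CycB (0.99 each), muskelin for plu (0.986), Cyp6a19 for CycB3 (0.991), sofe for CycE (0.985) and CycB for dhd (0.975). The next 2 were CycB and BigH1 for gnu, gammaTub37C and lok for plu, gnu and BigH1 for CycB, spd-2 and Gcna for CycB3, tos and dup for CycE, and Marf1 and del for dhd. These likenesses were ranked over all expressed genes with a name and are descriptions over the same arrays.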

How the data were processed

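Total RNA of whole females was hybridised by the authors to Affymetrix Drosophila version 2 arrays, and the deposited values are log2 expression levels that the authors computed with RMA (background correction, quantile normalization and summary per probe set); the software version was not given in the sources used here. The table held 18952 probe sets on 27 arrays without missing values. Array means were 6.32 to 6.39. Of the probe sets 13647 had 1 gene symbol, 402 several and 4903 none, and 13544 matched the RefSeq gene table of Release 6, which gave current names, the arm of each gene and its neighbours. A gene was the probe set with the highest mean, was called expressed above a wild type mean of 6, and had 1 constant per array added as described. The number of arrays, 3 per group, limits the precision. limma 3.58.1 in R 4.3.3 fitted 1 mean per group over all 27 arrays (18 residual degrees of freedom) with eBayes, and p-values were adjusted by Benjamini-Hochberg over the expressed genes of each comparison. The code was tested on simulated data. All measured genes of the set were named in every comparison against wild type; of the partner list, up to 3 called genes with the largest rise and 3 with the largest fall were named, and as most alike the 3 genes with the highest correlation to each member and the 5 for their mean, leaving out genes known only by a number. The genes of the set and all lists were chosen with earlier results of these data known. Alternatives were other centring, filters, probe set rules, array weights, prior variance, fits with fewer groups or arrays, and a replicate block. The labels give replicate numbers, and only 2 of 36 pairs of groups had same-numbered arrays that all deviated together (r over 0.1), so the numbers were not taken to pair arrays.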

Additional observations from a re-analysis of the deposited data

How the results depend on the processing

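Centring on the median or not at all, other filters, the mean over probe sets, leaving out shared probe sets and a variance trend kept the direction of every ratio to wild type, with 1 exception, and left the counts of called genes within 1.5 times. The exception was CycB in pof-mutant triplo 4th, at 0.013 with a wild type limit of 8, under which plu and CycE were not tested; CycE was also not tested without shared probe sets. With only the compared groups fitted, 6 passed in each deficiency genotype and 6 in haplo 4th. Without the 6 arrays of the pof groups, 6 passed in Df(2L)J-H/+ (49.4% of all expressed genes), 6 in Df(2L)ED4651/+ females (53.2%), 3 in Df(3L)4470/+ (43.6%) and 2 in Df(2L)J-H/+ haplo 4th females (34.1%), so the last 2 counts were near the share of all genes. Array weights, whose estimation stopped before it converged and with which 2635 to 5722 of 7378 genes passed in these comparisons, gave 6 in each deficiency genotype, haplo 4th, Df(2L)J-H/+ haplo 4th and Dp(2;2)Cam3/+ triplo 4th, 5 for Df(2L)J-H/+ haplo 4th against Df(2L)J-H/+ and 5 for Df(3L)4470/+ against the other deficiencies. They turned 4 pof-mutant ratios: gnu -0.78, plu -0.39, CycB -0.25 and dhd -0.28. The cause was not tested.

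Leaving out 1 array at a time, the counts ranged from 1 to 6 in Df(2L)J-H/+, 1 to 6 in Df(2L)ED4651/+ females, 0 to 1 in Df(3L)4470/+ and, for females with Df(2L)J-H/+ haplo 4th, 0 to 1, and stayed 0 in the other 8 comparisons. Ratios that changed sign ranged in Dp(2;2)Cam3/+ triplo 4th from -1.44 to 0.056 for plu and -1.94 to 0.069 for CycB3, and in pof-mutant from -0.12 to 0.93 for gnu. In pof-mutant triplo 4th they ranged from -0.82 to 0.39 for gnu, -0.85 to 0.71 for plu, -0.44 to 0.40 for CycB, -0.55 to 1.23 for CycB3, -0.49 to 1.32 for CycE and -0.52 to 0.34 for dhd. With the replicate number as a block, 2 passed in Df(2L)J-H/+ (gnu was at an adjusted p of 0.0526), 4 in Df(2L)ED4651/+ females and 1 in Df(3L)4470/+. Of all expressed genes 16.3%, 20% and 14.1% passed in these fits, so the count in Df(3L)4470/+ was near the share of all genes. The arrays share only a number.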
